A study of Mus musculus with 6 samples.

Results

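The 7 genes described here are the receptor tyrosine kinases Pdgfra, Pdgfrb, Kit and Kdr and the platelet-derived growth factor (PDGF) ligands Pdgfa, Pdgfb and Pdgfc. They are 7 of 21938 protein-coding genes and were chosen by name. XEN cells, which grow from the primitive endoderm of the blastocyst, were profiled by CUT&RUN, a method that tethers a nuclease through an antibody so that DNA around the bound protein is cut free, with 3 libraries for GATA4 and 3 for GATA6. The labels give the genotype 3F2 for all 6 libraries. The methods state 500000 cells and 30000000 reads per sample, which are not counts measured for each library. The 3F XEN lines come from mice with a doxycycline-inducible Oct4, Klf4, Sox2 and mCherry cassette (Col1a1 TetO-OKSmCh), a constitutive transactivator (R26 M2rtTA) and an Oct4-GFP reporter, so GATA4 and GATA6 libraries share these alleles. The labels name no dox treatment and no untreated or antibody-control library. 3F2 is a single line, and the spread between libraries may be technical. The methods also name the line 3F6 and fewer replicates than the labels, and the labels were followed. The lists hold no RNA, so the cell type label could not be checked against the expression of its markers.

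PDGF ligands act as dimers that bring receptor chains together, which then phosphorylate each other and recruit signalling proteins. PDGFRα is a standard surface marker of primitive endoderm and XEN cells, and GATA4 and GATA6 are transcription factors of that lineage which bind the letters GATA within a short preferred sequence. Pdgfra, Kit and Kdr lie next to each other on mouse chromosome 5 and arose from a common ancestral receptor gene.

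GATA4 and GATA6 regions at these genes were concentrated at Pdgfra. A combined list, as used here, holds the regions of a factor that all 3 of its libraries call, and a gene window is the gene body together with 50 kb to either side of every annotated transcription start site (TSS). Of the 7 genes, 3 had a GATA4 combined region (Pdgfra with 4, Kit with 2 and Pdgfc with 1), where 48.2% of all protein-coding genes had at least 1. Pdgfra, with 2, was the only gene of the 7 with a GATA6 combined region and with regions in both lists, against 38.3% and 33.8% of all protein-coding genes. Pdgfrb, Kdr, Pdgfa and Pdgfb had no region in either list. The counts of genes are therefore near or below those of genes in general, and Pdgfra stands high by its number of regions: 6.39% of protein-coding genes had as many GATA4 regions or more, and 15.8% as many GATA6 regions or more. For Kit the share with as many GATA4 regions was 25.7%. The Kit window, 174.278 kb, exceeds the median of 104.245 kb over all protein-coding genes. These shares make no allowance for window length. A region in a window is not thereby tied to the gene.

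Most regions in the lists are weak, and few recur. Each library held 42446 to 49597 regions with a median maximum signal of 4, where the maximum is the highest number of fragments over any base of the region. Over the 7 windows, 916.363 kb in all, the 6 lists merged into 87 regions, and 68 of these (78.2%) were called in 1 library only, against 83.2% of all 201994 merged regions. The 68 had a median maximum of 4 and none exceeded 7. All 6 libraries called 2 of the 87 regions (2.299%, against 1.88% of all), and both were at Pdgfra. Because signal was not scaled for depth, libraries were compared by the percentile of a region's total signal (pileup summed over its bases) among the regions of the same library.

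The sequences below, read from the plus strand of GRCm38 (mm10), are the centres of the 5 regions of a combined list that carried a GATA motif within 100 bp of the summit, the position of maximum signal taken as the median over the libraries. Capitals mark each match, on either strand, to the GATA motif. Its forms are AGATAA, its variant AGATAG, the form TGATAA and its variant TGATAG. A run of TTATCT is the first of these read on the minus strand. The summit was taken as the reference point after seeing the data.
Pdgfra -14.3 kb, chr5:75137863-75138063: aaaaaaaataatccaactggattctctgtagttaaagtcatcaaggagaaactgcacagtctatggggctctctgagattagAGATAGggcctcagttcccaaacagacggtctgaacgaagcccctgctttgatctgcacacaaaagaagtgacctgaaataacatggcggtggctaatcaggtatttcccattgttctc
Pdgfra -8.5 kb, chr5:75143710-75144009: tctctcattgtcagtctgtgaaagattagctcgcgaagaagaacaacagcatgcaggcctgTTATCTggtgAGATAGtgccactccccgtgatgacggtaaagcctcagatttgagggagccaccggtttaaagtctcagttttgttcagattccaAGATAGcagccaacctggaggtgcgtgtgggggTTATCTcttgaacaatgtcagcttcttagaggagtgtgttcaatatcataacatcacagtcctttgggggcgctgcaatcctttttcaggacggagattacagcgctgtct
Pdgfra -0.5 kb, chr5:75151456-75151656: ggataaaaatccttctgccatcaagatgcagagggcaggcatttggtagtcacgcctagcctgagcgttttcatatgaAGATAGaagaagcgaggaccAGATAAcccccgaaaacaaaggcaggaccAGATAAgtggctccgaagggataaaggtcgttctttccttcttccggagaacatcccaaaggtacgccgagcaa
Kit +49.5 kb, chr5:75624322-75624522: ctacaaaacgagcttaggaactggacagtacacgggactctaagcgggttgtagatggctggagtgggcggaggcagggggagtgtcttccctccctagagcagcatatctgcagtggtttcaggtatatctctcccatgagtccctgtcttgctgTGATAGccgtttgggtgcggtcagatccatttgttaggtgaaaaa
Pdgfc +164.1 kb, chr3:81200783-81200983: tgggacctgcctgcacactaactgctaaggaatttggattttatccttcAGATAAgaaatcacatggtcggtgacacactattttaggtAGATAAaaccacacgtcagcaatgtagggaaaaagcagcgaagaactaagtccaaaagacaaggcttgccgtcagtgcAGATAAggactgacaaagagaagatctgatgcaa

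Pdgfra (ENSMUSG00000029231.15) encodes PDGFRα, which binds PDGF-A, PDGF-B and PDGF-C, and lies on the plus strand of chromosome 5 at 75152292 to 75198215. Its window of 109.543 kb held 3.65 GATA4 and 1.83 GATA6 combined regions per 100 kb, against 0.3003 and 0.162 over chromosome 5. The chromosome values take in sequence outside gene windows, so the shares of genes with as many regions, given above, are the closer comparison. Regions are named by the distance of their midpoint from the first base of the gene. All 4 GATA4 regions lay between 14.3 kb upstream and 4.7 kb downstream of it.

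The leading region, 8.5 kb upstream of Pdgfra (chr5:75142915-75144667, 1753 bp), lies in an intron of the lncRNA gene Gm19583, and the nearest start site of any gene is that of Pdgfra. Its maximum signal was 31, 39 and 38 in the GATA4 libraries, replicates 1 to 3, and 14, 8 and 17 in the GATA6 libraries. By total signal every library placed it near the top of its own list: the percentile was 99.913, 99.957 and 99.936 for GATA4 and 99.753, 99.733 and 99.906 for GATA6. Total signal favours wide regions, and the median width of a region in a library was 400 to 549 bp. Ranked by mean percentile, it was number 23 of 8282 GATA4 combined regions and number 47 of 5170 GATA6 combined regions. The GATA4 percentiles all lay above the GATA6 percentiles, with means of 99.936 ± 0.0219 and 99.797 ± 0.0947 (SD, n = 3 each), a difference of 0.138 percentile points (exact permutation test, two-sided, p = 0.1). With 3 libraries against 3, 0.1 is the smallest p this test can give, so no comparison between the factors here can pass 0.05. The difference was 2.46 points when regions were ranked by maximum signal and 3.996 points when ranked by total signal per base pair, again with p = 0.1 by the same exact test. Per base pair, GATA6 replicates 1 to 3 ranked this region lower, at percentiles 97.1, 92.1 and 97.3, whereas the GATA4 replicates kept it at 99.6, 99.1 and 99.8. Maximum signal put it at percentiles 99.1, 93.8 and 99.6 in the GATA6 libraries, beside 99.889, 99.942 and 99.953 in the GATA4 libraries. The summits of the 6 libraries fell within 128 bp of each other. Of the sequences printed above, that of this region held the most motifs, with 4 in 300 bases, at 86 and 76 bp before the summit and 9 and 42 bp after it. At least 3 motifs in such a window were found in 13.6% of the 9655 merged combined regions, and in 24.8% of those farther than 1 kb from a TSS.

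The promoter of Pdgfra was also called in all 6 libraries (chr5:75151228-75152454, 1227 bp, midpoint 0.5 kb upstream), but with weak signal. The maximum of 5, 7 and 5 for GATA4 was close to the 4, 7 and 7 for GATA6. Its percentile in the GATA4 libraries was 68.1, 90.2 and 45.1 and in the GATA6 libraries 47.1, 98.3 and 90.0, so the factors overlapped (67.8 ± 22.6 against 78.5 ± 27.5, SD, n = 3 each, exact permutation p = 0.6). Without GATA4 replicate 3 the difference of -10.7 points became 0.637. In 5 libraries the called stretch ended upstream of the start site, and GATA6 replicate 3 had a second, weaker region there (maximum 4, percentile 27.2) that reached 0.163 kb past it. The summit lay upstream of the gene, with 3 motifs at 19 bp before it and 1 and 30 bp after it. No motif lay within 100 bp of the region's midpoint. Among combined regions within 1 kb of a TSS, 17.5% had any motif within 100 bp of the summit, and 1.91% had 3 or more in 300 bases.

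The other 2 regions at Pdgfra were in the GATA4 combined list only. The region 14.3 kb upstream (chr5:75137598-75138431, 834 bp, Gm19583 intron) had a maximum of 4, 6 and 4 for GATA4, and GATA6 replicates 1 and 3 also called it, with 8 and 5. Percentiles in the GATA4 libraries were 92.03, 55.9 and 52.3, beside 85.4 and 79.8 in the calling GATA6 libraries, so its absence from the GATA6 combined list rests on replicate 2 alone. The region 4.7 kb downstream (chr5:75156599-75157325, 727 bp) covers an alternative start site and untranslated exon of Pdgfra. It had a maximum of 5, 6 and 5 and percentiles of 22.7, 63.9 and 84.0 in the GATA4 libraries, and no GATA6 library called it. It was the only GATA4 combined region at the 7 genes with no GATA6 call, where 9.03% of the whole GATA4 list had none. There was no GATA motif within 100 bp of its summit, a measure chosen after seeing the data, but there were 2 within 100 bp of its midpoint. The 201 bases around the summit ended in a run of 33 alternating C and T bases, and 23.9% of the 201 were masked as repeat.

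**Figure D1:**
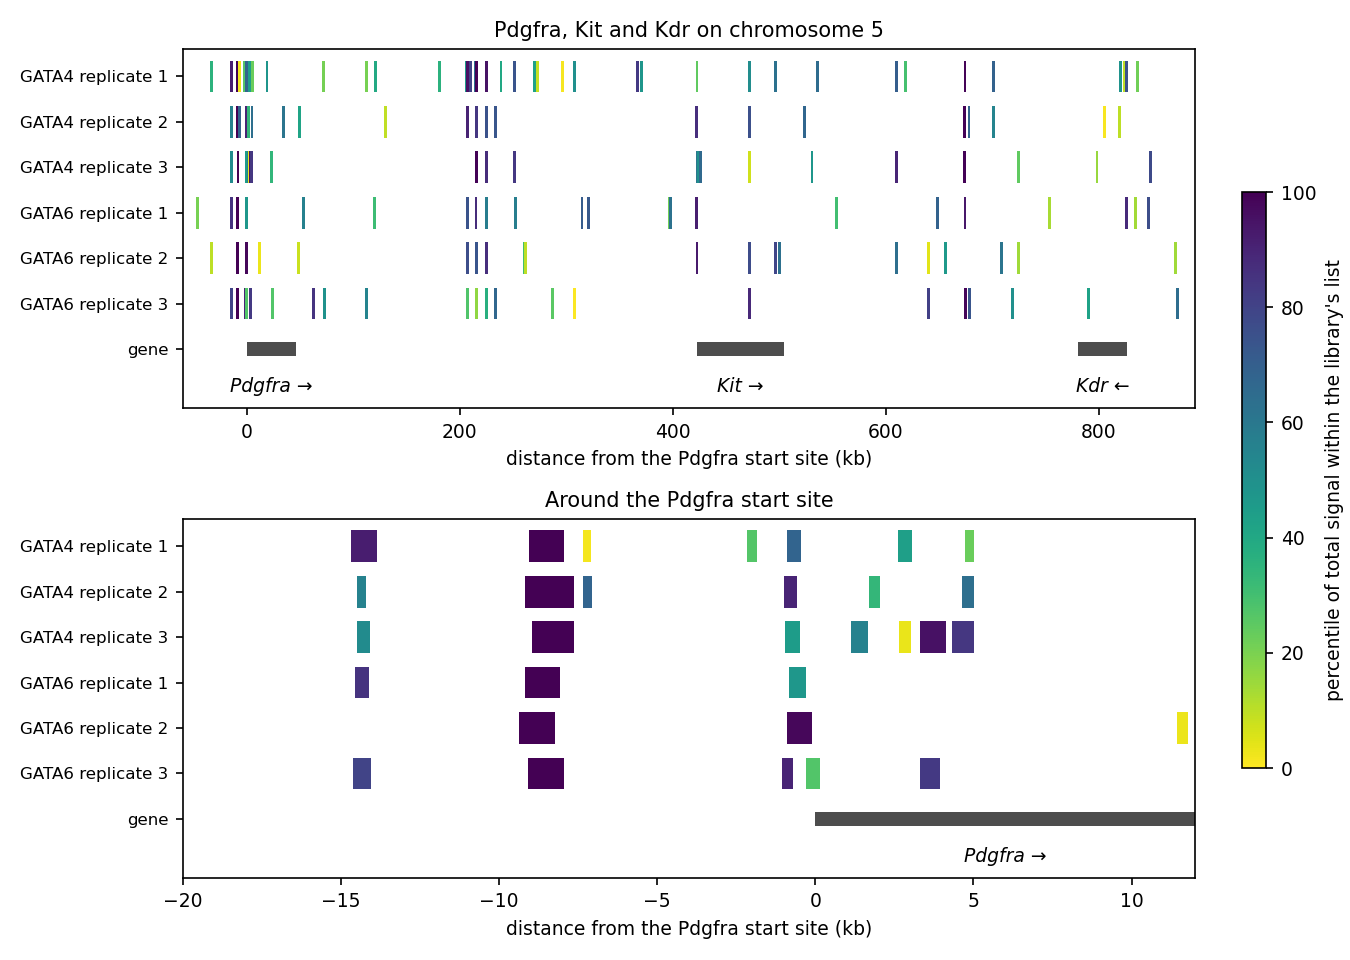
Regions called in each of the 6 libraries, one line per library, against the distance in kb from the Pdgfra start site, over the 926.167 kb that hold Pdgfra, Kit and Kdr (top, regions drawn wider than scale where very short) and within 20 kb upstream and 12 kb downstream of that site (bottom). Colour gives the percentile of total signal within the library's own list and grey bars are gene bodies with an arrow for the strand; the region 8.5 kb upstream of Pdgfra is dark in all 6 libraries, while the stretch 4.7 kb downstream is filled in the GATA4 libraries only.

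Counted library by library, Pdgfra had 9, 8 and 8 regions in the GATA4 libraries and 5, 5 and 6 in the GATA6 libraries. The groups did not overlap, with means of 8.33 ± 0.577 and 5.33 ± 0.577 (SD, n = 3 each), a difference of 3 regions (exact permutation p = 0.1). Leaving out any 1 library kept the difference between 2.67 and 3.33. Counting only regions that at least 2 of the 6 libraries called gave 7, 5 and 6 against 3, 3 and 5, and the groups then met at 5. Of the 7 genes, 2 (Pdgfra and Pdgfc) had every GATA4 library above every GATA6 library, as did 5.36% of all protein-coding genes, and 1 (Pdgfrb) had the reverse, as did 1.49%. None of the 3 kept this separation when single-library regions were left out. Summed over the 7 genes, the libraries had 25, 22 and 26 regions for GATA4 and 17, 17 and 21 for GATA6 (24.3 ± 2.08 against 18.3 ± 2.31, exact permutation p = 0.1). That difference of 6 is a net value: GATA4 was higher on average at Pdgfc (by 3.67), Pdgfra (3), Kit (1.67), Kdr (0.667) and Pdgfb (0.667), and the difference was -1.67 at Pdgfrb and -2 at Pdgfa. Over all protein-coding genes a window held 3.75 regions in a GATA4 library and 3.33 in a GATA6 library on average.

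**Figure D2:**
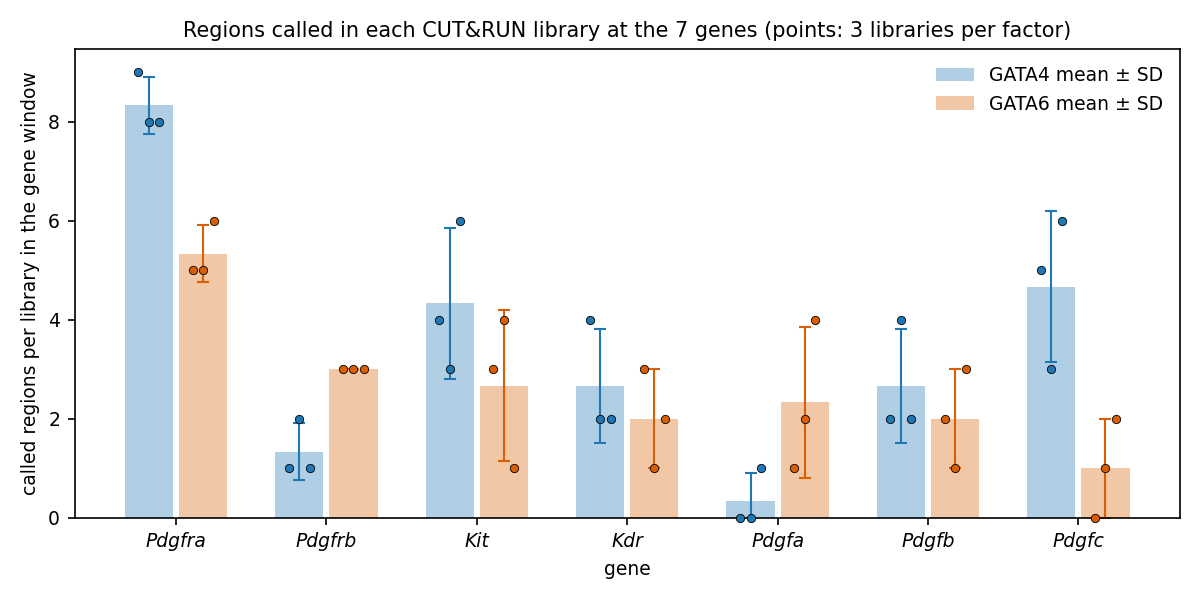
Number of called regions per library in the window of each of the 7 genes, with a point for each of 3 GATA4 and 3 GATA6 libraries, bars for the mean and error bars for the SD, cut off at 0. The points of the factors do not overlap at Pdgfra and Pdgfc, where GATA4 is higher, and at Pdgfrb, where GATA6 is higher (3 regions in each GATA6 library).

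Kit, the receptor for stem cell factor, lies beyond Pdgfra on the same strand (chromosome 5, 75574916 to 75656722) and had 2 GATA4 combined regions and no GATA6 combined region. The first (chr5:75574684-75575220, 537 bp) covers the start site and first coding exon. It had a maximum of 8, 8 and 6 for GATA4, and of 10 and 9 in GATA6 replicates 1 and 2, with no call in GATA6 replicate 3. Its percentiles were 24.5, 86.7 and 81.1 in GATA4 libraries and 91.7 and 93.0 in GATA6 libraries. By total signal per base pair this narrow region stood higher, at 97.2, 89.0 and 80.7 for GATA4. In GATA6 replicates 1 and 2 it was at 97.7 and 99.3, above the region 8.5 kb upstream of Pdgfra (97.1 and 92.1). The 201 bases around its summit were 71.6% G and C with 18 CpG dinucleotides and no GATA motif, against a median of 54.2% G and C over all merged combined regions. The second (chr5:75624168-75624759, 592 bp), in an intron 49.5 kb into the gene, had a maximum of 8, 7 and 4 for GATA4 and of 4 and 8 in GATA6 replicates 2 and 3. Its percentiles ranged from 7.05 in GATA4 replicate 3 to 88.4 in GATA6 replicate 3, and it carries a single TGATAG, 59 bp after the summit. For both Kit regions a different single GATA6 library lacked the call, so at Kit each factor had a region in at least 2 of 3 libraries at the same places. Kit had 4, 3 and 6 regions per GATA4 library and 3, 4 and 1 per GATA6 library, which overlap (4.33 ± 1.53 against 2.67 ± 1.53, exact permutation p = 0.5).

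Kdr, the main receptor for VEGF-A, lies on the minus strand (chromosome 5, 75932827 to 75978458) and had no combined region. The region called in most libraries covers its start site (chr5:75978088-75978751) and was found in GATA4 replicate 1 (maximum 7, percentile 74.8) and GATA6 replicate 1 (maximum 9, percentile 87.9). Its centre was 65.7% G and C, with no GATA motif. Region counts at Kdr were 4, 2 and 2 in GATA4 libraries and 3, 1 and 2 in GATA6 libraries and overlapped (exact permutation p = 0.7).

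Pdgfrb, the receptor for PDGF-B, had no combined region either (chromosome 18, 61045150 to 61085061, plus strand). Its counts were 1, 2 and 1 in GATA4 libraries and 3, 3 and 3 in GATA6 libraries, which did not overlap (difference -1.67, exact permutation p = 0.1). Of its 11 merged regions, 9 were in 1 library only. The difference was 0 in the gene body with 10 kb to either side of a start site, 0 when regions were given to their nearest start site, and 0 for regions in at least 2 of the 6 libraries. A coding exon 20.6 kb into the gene (chr18:61065436-61066056) was called in GATA6 replicates 2 and 3 with a maximum of 6 and 10, at percentiles 73.3 and 80.0, and in no GATA4 library. A stretch 1.7 kb upstream (chr18:61043077-61043730) was called in GATA4 replicates 1 and 3 with a maximum of 3 and 4, and in no GATA6 library.

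Among the ligands, Pdgfc was the only gene with a combined region. PDGF-C is secreted with a CUB domain that must be cleaved off before it binds PDGFRα. The region lies in an intron 164.1 kb into the 177.625 kb gene (chr3:81199894-81201119, 1226 bp; gene on chromosome 3, 81036416 to 81214040, plus strand), far from any annotated start site, and is in the GATA4 list only. Its maximum was 9, 10 and 6 for GATA4 and 6 in GATA6 replicate 3, with no call in the other GATA6 libraries. Percentiles were 94.1, 94.9 and 96.3 for GATA4 and 97.3 for GATA6, and it ranked 1578 of 8282. After the region 8.5 kb upstream of Pdgfra this was the highest rank by total signal at the 7 genes, the remaining 5 GATA4 regions ranking from 6526 to 8008. Total signal favours wide regions such as this one. Per base pair, the percentiles of the Pdgfc region were 97.5, 93.5 and 69.9 for GATA4 and 71.3 in GATA6 replicate 3. The 3 motifs near its summit, at 48 and 8 bp before the summit and 70 bp after it, all read AGATAA. No motif lay within 100 bp of the midpoint of the Pdgfc region. Pdgfc had 5, 3 and 6 regions per GATA4 library and 0, 1 and 2 per GATA6 library, which did not overlap (4.67 ± 1.53 against 1 ± 1, exact permutation p = 0.1). The regions behind these counts were mostly private to a library, 13 of 14 being in 1 library only, and for regions in at least 2 of the 6 libraries the counts were 1, 1 and 1 against 0, 0 and 1. Within 50 kb of a start site, introns there included but the rest of the gene body left out, the difference was 0.667 regions.

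Pdgfa and Pdgfb, which encode the chains of PDGF-AA and PDGF-BB, had no combined region. At Pdgfa (chromosome 5, 138976014 to 138997370, minus strand) the counts were 0, 0 and 1 in GATA4 libraries and 1, 2 and 4 in GATA6 libraries, which met at 1 (exact permutation p = 0.2). No region at Pdgfa was called by more than 1 library, and the strongest by percentile, 4.9 kb upstream (chr5:139001914-139002637), had a maximum of 3 in GATA6 replicate 3. At Pdgfb (chromosome 15, 79995874 to 80014977, minus strand) the counts were 2, 4 and 2 in GATA4 libraries and 2, 1 and 3 in GATA6 libraries and overlapped (exact permutation p = 0.7). The Pdgfb region called most often, 38.0 kb upstream (chr15:80052711-80053291), had a maximum of 8 and 7 in GATA4 replicates 2 and 3 and 5 in GATA6 replicate 3, and its nearest start site is that of Rpl3.

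**Figure D3:**
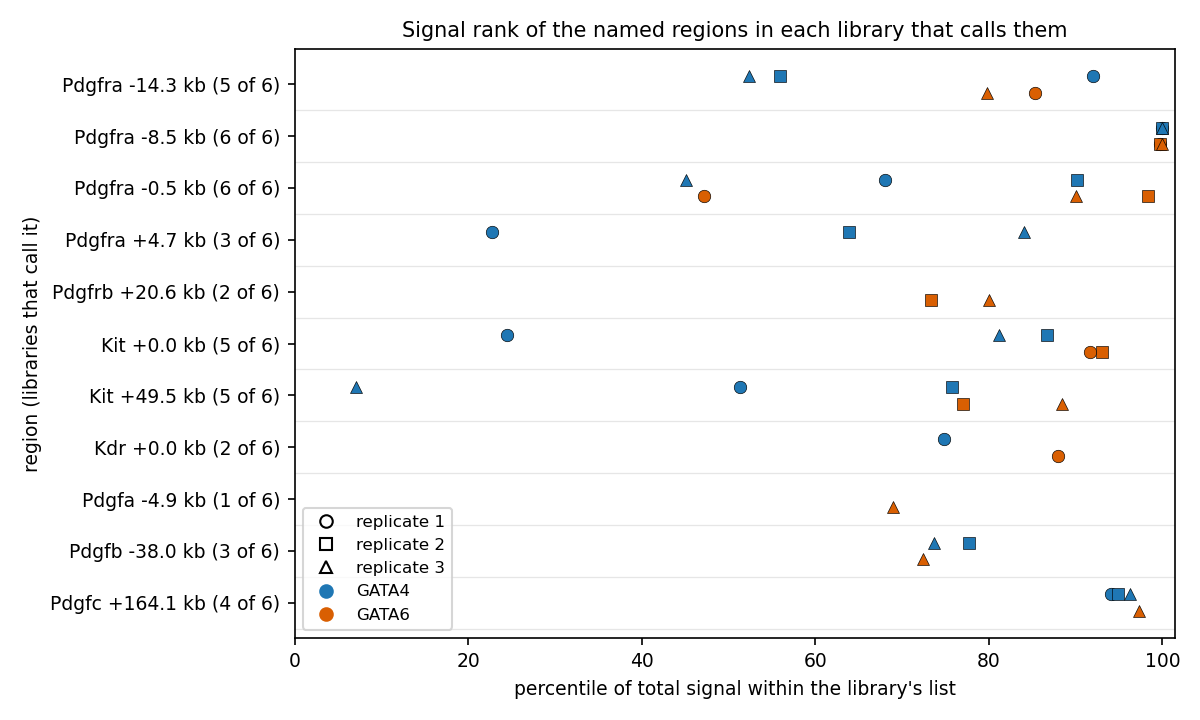
Percentile of total signal (x axis, 0 to 100 within the library's own list) of each named region in every library that called it, with GATA4 in blue, GATA6 in orange and a marker shape per replicate. Only the region 8.5 kb upstream of Pdgfra has 6 points above 99, and the Pdgfc intron has 4 points above 94.

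The neighbours on chromosome 5 were then described as a block, because a window of 50 kb leaves most of the space between them unassigned. From 50 kb before the Pdgfra start to 50 kb before the Kdr start (926.167 kb) there were 9 GATA4 and 5 GATA6 combined regions, and 4 of the 10 merged regions fell in no gene window. Between Pdgfra and Kit there were 3. The strongest of them, 215.5 kb beyond the Pdgfra start (chr5:75367144-75368451), was in both lists, with a maximum of 17, 12 and 15 for GATA4 and 8, 6 and 6 for GATA6. Its percentiles were 99.5, 98.1 and 99.3 for GATA4, above the 87.4, 94.8 and 16.7 for GATA6, and it had no GATA motif within 100 bp of its summit. A region 225.1 kb beyond the Pdgfra start (chr5:75377142-75377710, 1 motif) was in both lists, and another at 206.9 kb (chr5:75358773-75359698, 3 motifs) in the GATA6 list and in 2 GATA4 libraries. Between Kit and Kdr a single region (chr5:75825662-75827057, 1 motif), 152.098 kb from the Kdr start, was in the GATA4 list, with a maximum of 15, 11 and 14 and percentiles of 99.1, 99.3 and 99.5. GATA6 replicates 1 and 3 called it with a maximum of 8 and 8 and percentiles of 93.6 and 98.8.

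By nearest start site over protein-coding and lncRNA genes, Pdgfra kept 4 GATA4 and 2 GATA6 combined regions and Kit kept 2 and 0, while Kdr and Pdgfc had none, since lncRNA start sites lie nearer. By nearest protein-coding start site, Pdgfra had 5 GATA4 and 4 GATA6 regions, Kit 3 and 1, Kdr 1 and 0, and Pdgfc 1 and 0. The Kdr region and the added Pdgfra and Kit regions are the intergenic ones above. Merged with the calls of the other libraries, the 2 added GATA6 regions at Pdgfra have midpoints 197402 and 205964 bp from its nearest start site. Taken from the GATA6 combined list alone, the farther of them lies at 205594 bp.

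Over the 7 genes together, 2 of 7 GATA4 combined regions overlapped a GATA6 combined region, where 45.2% of the whole GATA4 list and 72.3% of the GATA6 list overlapped the other. A further 3 of the 7 were called by 2 GATA6 libraries and 1 by a single GATA6 library, against 28.0% and 17.7% of the whole list. With a region required in at least 2 of 3 libraries in place of all 3, the genes had 12 GATA4 regions at 5 genes and 6 GATA6 regions at 3 genes, the added genes being Pdgfrb and Pdgfb for GATA4 and Kit and Pdgfrb for GATA6.

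Within 100 bp of the region's midpoint, the planned measure, a GATA motif was present in 3 of the 7 regions, against 37.3% of the 9655 merged combined regions. Within 100 bp of the summit, a measure chosen after seeing the data, it was present in 5 of the 7, against 43.2%. The Pdgfra promoter region and the Kit and Pdgfc introns had a motif near the summit but 0 near the midpoint. Measured from the summit, the motif was found in 67.7% of regions farther than 1 kb from a TSS. The regions without it near the summit were those over the start sites of Kit and of the alternative Pdgfra transcript, and the latter had 2 near its midpoint. In RefSeq promoters (GRCm38.p6, 250 bases before to 50 after a start), 5 of the 7 genes matched with 7 promoters, of which 0 held the motif, against 29.8% of 32851 promoters. Pdgfrb and Pdgfb had no entry. The Kit promoters (chr5:75574737-75575036 and chr5:75574741-75575040) are nearly the same sequence, so the 7 are not all separate. The motifs at the Pdgfra promoter region lie upstream of that 300-base stretch.

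**Figure D4:**
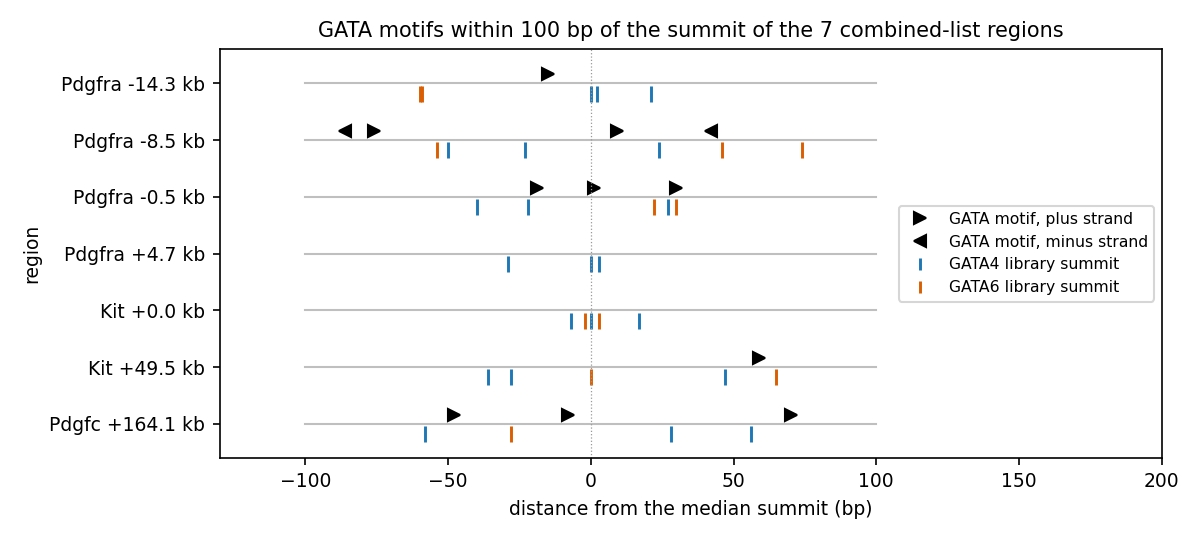
Positions of GATA motifs (triangles, pointing right for the plus and left for the minus strand) within 100 bp of the median summit of the 7 combined-list regions at Pdgfra, Kit and Pdgfc, in bp from that summit, with the summit of each calling library as a blue (GATA4) or orange (GATA6) tick. The region 8.5 kb upstream of Pdgfra has 4 motifs, the Pdgfra promoter and the Pdgfc intron have 3 each, and the Kit promoter and the region 4.7 kb into Pdgfra have none this close to the summit.

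Of 32 other genes of these pathways, 22 had a GATA4 combined region in the window, 14 a GATA6 region, 13 both and 9 neither, against the 48.2%, 38.3% and 33.8% of all protein-coding genes given above for GATA4, GATA6 and both. The median was 1 GATA4 and 0 GATA6 regions a gene, against 0 and 0 over all genes. The genes grouped as signalling proteins at the receptors had a GATA4 region at 11 of 13 genes and a GATA6 region at 6. The other receptors had 2 and 1 of 4, the other ligands 6 and 4 of 10, and the co-receptors and ligand-cleaving proteases 3 and 3 of 5. Among genes with both, the most GATA4 regions were at Flt3l, the FLT3 ligand (4 GATA4 and 5 GATA6), and at Plat, tissue plasminogen activator (4 and 4), a protease that cleaves PDGF-C. Vegfb, a VEGF-family ligand, had 3 and 2, and Shc1, an adaptor that binds phosphorylated receptors, had 3 and 3. The next 5 genes each had 2 GATA4 regions. These were the VEGF receptor gene Flt1 with 1 GATA6 region, the VEGF ligand gene Vegfa with 2, the protease gene Plau with 1, the adaptor gene Crk with 2 and the ubiquitin ligase gene Cbl with 2. Every GATA4 library exceeded every GATA6 library at 2 of the 32, Crk (8, 5 and 5 against 4, 3 and 4) and Rasa1, which encodes a Ras GTPase-activating protein (4, 5 and 3 against 0, 1 and 2), and the reverse was found at 0, beside 5.36% and 1.49% of all protein-coding genes.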

How the data were processed

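GATA4 and GATA6 CUT&RUN libraries of XEN cells, 3 per factor, were grouped by title. The authors aligned reads to mm10 with Bowtie2 2.3.4.1, filtered out duplicate, poorly mapped and mitochondrial reads and blacklisted stretches with Picard, SAMtools and bedtools, and called regions per library with SEACR 1.3 on the pileup of all filtered fragments, with no IgG control entering the call as described. The methods give a numeric threshold, which largely sets how many regions a library yields, and word the mode as non stringent, whereas the deposited lists carry the name stringent. Which mode was used could not be settled from the lists, and a stricter or looser mode would change every count and absence given here. The deposited per-library lists give total and maximum signal unscaled for depth. The combined lists hold positions only and equalled regions rebuilt from 3 of 3 libraries (8282 and 5170).

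A region counted for a gene when at least 1 bp overlapped the gene body or 50 kb to either side of a TSS (GENCODE M21, all transcripts of protein-coding and lncRNA genes for nearest-TSS assignment). Counts and percentiles were compared by exact permutation tests, two-sided, over all 20 ways to divide 6 libraries into 3 and 3, in Python 3.11.15 with numpy 2.4.6 and scipy 1.17.1, and sequence was read with pysam 0.24.0. Fragment counts left after filtering are not given in the sources used here, so precision is the SD over 3 libraries. The counting code was checked on simulated lists, with other regions scattered evenly and planted regions at the same positions in all 3 GATA4 lists. Recovery of 800 of 800 planted regions was therefore fixed in advance. Of 200 genes with 4 added regions, 166 separated the libraries of the factors. Real regions are not scattered evenly and few recur, so this share does not measure detection in the real lists.

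The 7 genes, the 32 pathway genes and the lists were chosen with earlier results of these data known. All 7 genes are named, with every combined-list region at them or else the region called in most libraries. Of the 32, genes in both lists are named by number of GATA4 regions, at most 8. A tie of 5 genes made this 9. Rasa1 and the regions between genes were named after their values were seen. The main tests did not pair libraries by replicate number. Deviations of libraries sharing a number correlated at 0.00102 to 0.00148 over 201994 merged regions, and those of other pairs at -0.00317 to 0.00194. Over gene windows the ranges were -0.0284 to 0.0320 and -0.0600 to 0.0723. Since 83.2% of merged regions were in 1 library only, these values cannot decide whether the numbers pair the libraries.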

Additional observations from a re-analysis of the deposited data

How the results depend on the processing

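The excess of regions per GATA4 library over the 7 genes, 6, kept its direction under every alternative run, from 2.33 with the regions above the median total signal of each list to 8.67 with 10 kb windows (gene body kept), and no alternative could pass 0.05. The number of genes whose libraries did not overlap, 3, was 1 with 100 kb windows and 0 by nearest TSS, above the median signal, and with regions in at least 2 of 6 libraries, an alternative chosen after seeing the data. In 100 kb windows 5 genes had a GATA4 and 2 a GATA6 region, with 4 GATA6 regions. Above the median signal there were 3 GATA4 regions, 1 GATA6 region and 1 shared. Calls in at least 2 of 3 libraries gave 12, 6 and 5, at 5 and 3 genes, 7 of the regions having the motif. By nearest coding TSS, also added after seeing the data, there were 5 GATA6 regions. The motif count, 3, was 6 over whole regions, 5 within 250 bp, 5 around the summit (added after seeing the data) and 1 for AGATAA alone. Leaving out libraries gave 3 to 6 regions with the motif (6 without GATA4 replicate 1 or 3), 3 to 4 GATA6 regions (4 without replicate 1) and 1 to 3 genes with a GATA6 region (Pdgfra, Kit and Pdgfrb without replicate 1, Pdgfra and Kit without replicate 3). The rank difference at the Pdgfra promoter ran from -26.4 to 0.637, turning positive without GATA4 replicate 3. Pdgfb turned to -0.333 with 10 kb windows and Kdr to -0.333 above the median signal. With the replicate block, the difference over the 7 genes stayed 6 (exact sign-flip p = 0.25, the smallest 3 pairs allow), and 4 genes had the same sign in every pair. Whether the numbers pair the libraries is not known, and the block changed no call. Of 233 alternative values, 3 reversed, 9 differences fell to 0 and 26 counts changed beyond a set ratio or fell to 0. The other tested differences kept their sign, which is all that could be asked of them, since no p could pass 0.05. Low signal limits what absence means: a site under the caller's threshold was not detectable here.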
